A study of Sus scrofa with 9 samples.

Results

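Mitochondrial ribosomal proteins build the ribosome that works inside mitochondria, and the genes described here are those of pig germ cells. Every gene whose mapped symbol began with MRPL or MRPS followed by a digit was taken, whatever its level or its change. This gave 64 genes of the 22342 in the table, 14749 of which carried a symbol, with 1 gene identifier for each of the 64 symbols. By their place in the mammalian mitochondrial ribosome 42 belong to the large subunit and 22 to the small subunit, because MRPS18A and MRPS30 sit in the large subunit despite their symbols. Of the 64, 38 have a bacterial counterpart and 26 are specific to mitochondrial ribosomes.

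The study followed gene expression through spermatogenesis in the pig, Sus scrofa, by RNA-seq of cells from the testis. There were 3 stages with 3 libraries each: spermatogonia (libraries 1, 2 and 3), the mitotic germ cells that start the process, spermatocytes (libraries 2, 3 and 4), the cells in meiosis, and round spermatids (libraries 1, 2 and 3), the haploid cells that follow meiosis. No breed, age, treatment or genotype is given in the labels, which name testis as the source of all 9 libraries. The 3 comparisons were spermatocytes against spermatogonia, round spermatids against spermatocytes and round spermatids against spermatogonia, and each pair of comparisons shares the libraries of a stage, so their values stand side by side below as separate results.

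The mitochondrial ribosome translates the few messenger RNAs of the mitochondrial genome, all of which code for subunits of the respiratory chain and the ATP synthase. Its ribosomal RNAs come from the mitochondrial genome, but all its proteins are encoded in the nucleus, made in the cytosol and imported. The small subunit binds the messenger RNA and reads the codons, and the large subunit joins the amino acids and releases the chain toward the inner membrane. During spermatogenesis the mitochondria of germ cells change shape and position, and those kept by the spermatid end in the midpiece of the sperm tail.

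Libraries held 47963279 to 64639201 estimated counts, and round spermatid library 2 was the shallowest. The spermatogonia libraries resembled each other far more than other replicates did, although they still differed by more than counting noise: over genes with at least 40 counts in a pair, the median chi-square of a pair was 0.819 to 0.892 among spermatogonia, 5.97 to 12.9 among spermatocytes and 2.35 to 25.5 among round spermatids, where counting noise alone gives 0.455. Round spermatid library 2 stood apart from the other two. KIT, whose name heads the spermatogonia columns, had 6.22 to 6.54 CPM in spermatogonia, 6.64 to 8.07 CPM in spermatocytes and 22.8 to 25.7 CPM in round spermatids. Markers were checked against the labels as summed CPM (counts scaled to library size, after TMM correction). Spermatocyte markers, 8 of 8 found, summed to 782 to 817 CPM in spermatogonia, 2699.7 to 3413 in spermatocytes and 222 to 291 in round spermatids. Spermatid markers, 8 of 8 found, summed to 3233 to 3319, 1957 to 3077 and 6191.5 to 8271 CPM in the same order of stages, and spermatogonia markers, 7 of 8 found, to 95.5 to 99.6, 36.5 to 47.2 and 85.1 to 92.1 CPM. Single markers did not all follow these sums. By the edgeR test below, 4 spermatid markers were higher and 3 lower in round spermatids than in spermatogonia. For spermatogonia markers these counts were 3 and 2. Of the spermatocyte markers 6 were higher and 2 lower in spermatocytes than in spermatogonia. Among other testis cells, markers of myoid and smooth muscle cells (8 of 8 found) summed to 39.3 to 40.2, 26.6 to 40.2 and 5052 to 6312 CPM, those of Sertoli cells (10 of 10) to 251 to 258, 36.5 to 55.1 and 1049.5 to 1148.5 CPM, and those of Leydig cells (6 of 8) to 297 to 316, 1.88 to 2.96 and 25.6 to 33.8 CPM. Among defining markers, AMH was at 0 in 3 spermatocyte libraries and FSHR and LHCGR in 2. Myoid and Sertoli markers were thus highest in the round spermatid libraries and Leydig markers in the spermatogonia libraries. KIT was highest in the round spermatid libraries, and spermatid markers summed higher in the spermatogonia libraries than in the spermatocyte libraries. The stages are therefore named here by their labels only. The part of other cell types or stages in the results below was not tested.

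As a group, in summed CPM after TMM correction, the mitochondrial ribosomal protein genes were highest in spermatogonia and lowest in round spermatids. Their summed level was 2971, 2863 and 2863 CPM in the spermatogonia libraries, 2691, 2645 and 2167 CPM in the spermatocyte libraries and 1507, 1556 and 1448 CPM in the round spermatid libraries. No library of a stage overlapped with one of another stage in this sum. The CPM sums were not computed under other scalings of the counts. In spermatocytes against spermatogonia the members' median log2 fold change was −0.43 as reported. It was −0.18 when TMM left out the 50 most abundant genes, so the gap between these stages depends on the scaling. Large-subunit genes summed to 1860 ± 43.0 CPM in spermatogonia, 1370 ± 168 in spermatocytes and 938 ± 81.5 in round spermatids (SD, n = 3 each). Small-subunit genes summed to 1039 ± 19.7 CPM in spermatogonia, 1131 ± 121 in spermatocytes and 565 ± 33.3 in round spermatids (SD, n = 3 each), and here the spermatocyte and spermatogonia libraries overlapped. The spermatocyte sum rests on MRPS9, singled out after its values were seen: without it the other 21 small-subunit genes summed to 873 ± 17.1 CPM in spermatogonia, 803 ± 81.2 in spermatocytes and 434 ± 11.6 in round spermatids. On the TPM scale the small subunit declined at each step without overlap, with 1191 ± 13.8 TPM in spermatogonia, 947 ± 50.9 in spermatocytes and 445 ± 117 in round spermatids (SD, n = 3 each). In bulk libraries fewer cells of a type and less RNA per cell cannot be told apart.

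**Figure D1:**
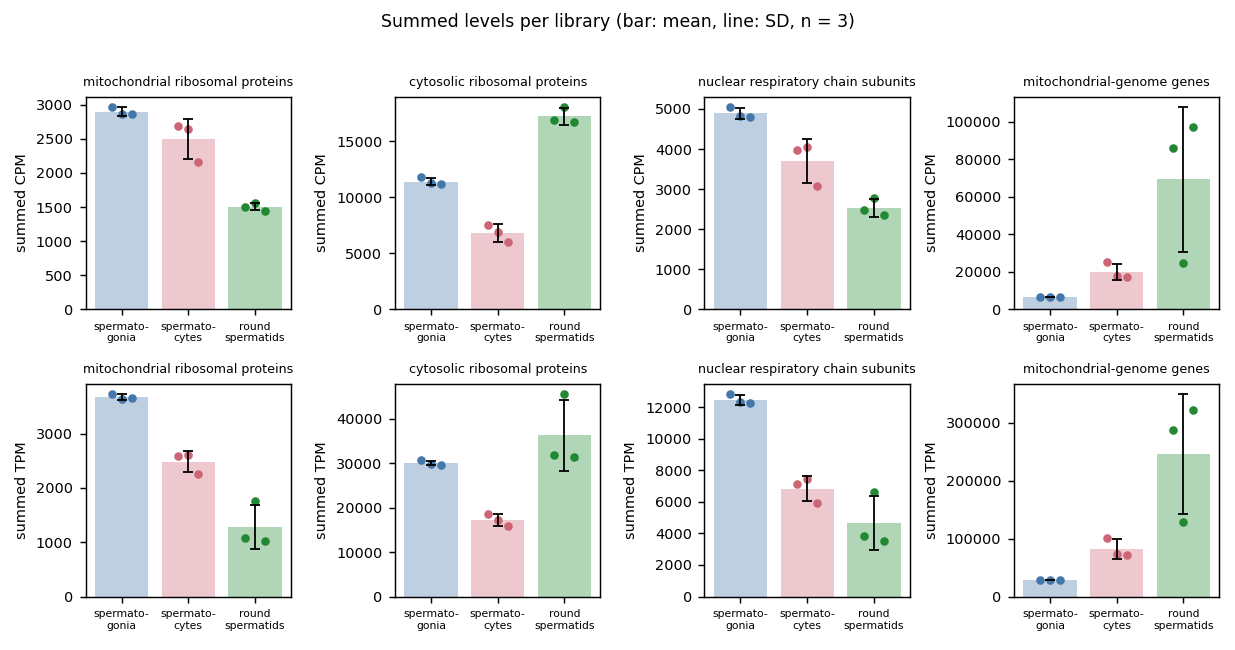
Summed level (CPM in one row, TPM in the other) of the 64 mitochondrial ribosomal protein genes beside cytosolic ribosomal protein genes, nuclear genes of the respiratory chain and genes of the mitochondrial genome, with bars for the mean of 3 libraries, SD as error bars and points for libraries. After TMM correction the mitochondrial ribosomal sum declined from stage to stage to 1503 CPM. That of the mitochondrial-genome genes rose to 69279 CPM in round spermatids with a wide spread between libraries.

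On the TPM scale, which corrects for gene length and allows levels to be compared between genes, the median member stood at 31.2 TPM in spermatogonia, 16.8 TPM in spermatocytes and 12.1 TPM in round spermatids. Members over 100 TPM numbered 10, 7 and 0 in these stages, and members under 10 TPM numbered 10, 16 and 26. TPM shares a fixed total per library, of which mitochondrial-genome genes took on average 28806, 81992 and 246560 in these stages. All filtered genes on log2(TPM + 0.5) had a median difference from spermatogonia of −0.62 in spermatocytes and −0.61 in round spermatids. The members' medians were −0.93 and −1.15, so part of their lower TPM is common to all genes. The mRNA levels of the members spanned a wide range: in spermatogonia the highest was MRPL51, a large-subunit protein specific to mitochondria, at 451 TPM, and the lowest MRPS14, the counterpart of bacterial S14, at 3.55 TPM. In spermatocytes and round spermatids the highest was MRPL22, the counterpart of bacterial L22 that lines the exit tunnel, at 263 and 94.0 TPM. The 5 most abundant members made up 37.2% of the summed TPM in spermatogonia, 36.8% in spermatocytes and 28.0% in round spermatids. MRPL51, MRPL22 and MRPS34, a mitochondria-specific small-subunit protein, were among the 5 in all 3 stages. MRPL37 and MRPL24 were among them in spermatogonia, MRPS31 and MRPL39 in spermatocytes, and MRPS31 and MRPS2 in round spermatids.

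By mean CPM, 34 members were highest in spermatogonia, 23 in spermatocytes and 7 in round spermatids. The lowest mean lay in round spermatids for 46, in spermatocytes for 15 and in spermatogonia for 3. The commonest course, seen in 25 members, was a decline over all 3 stages, and 21 members were highest in spermatocytes and lowest in round spermatids. A further 9 were highest in spermatogonia and lowest in spermatocytes, and 6 were lowest in spermatocytes and highest in round spermatids. These courses rest on mean CPM after TMM correction, without a test, and were not recounted under other scalings. When TMM left out the 50 most abundant genes, the all-gene median of spermatocytes against spermatogonia shifted by 0.24 log2 units. Members with small differences between these stages may therefore change course. All 64 passed the filter on low counts, and the lowest estimated count of a member in any library was 55.5, so no member was at 0.

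**Figure D2:**
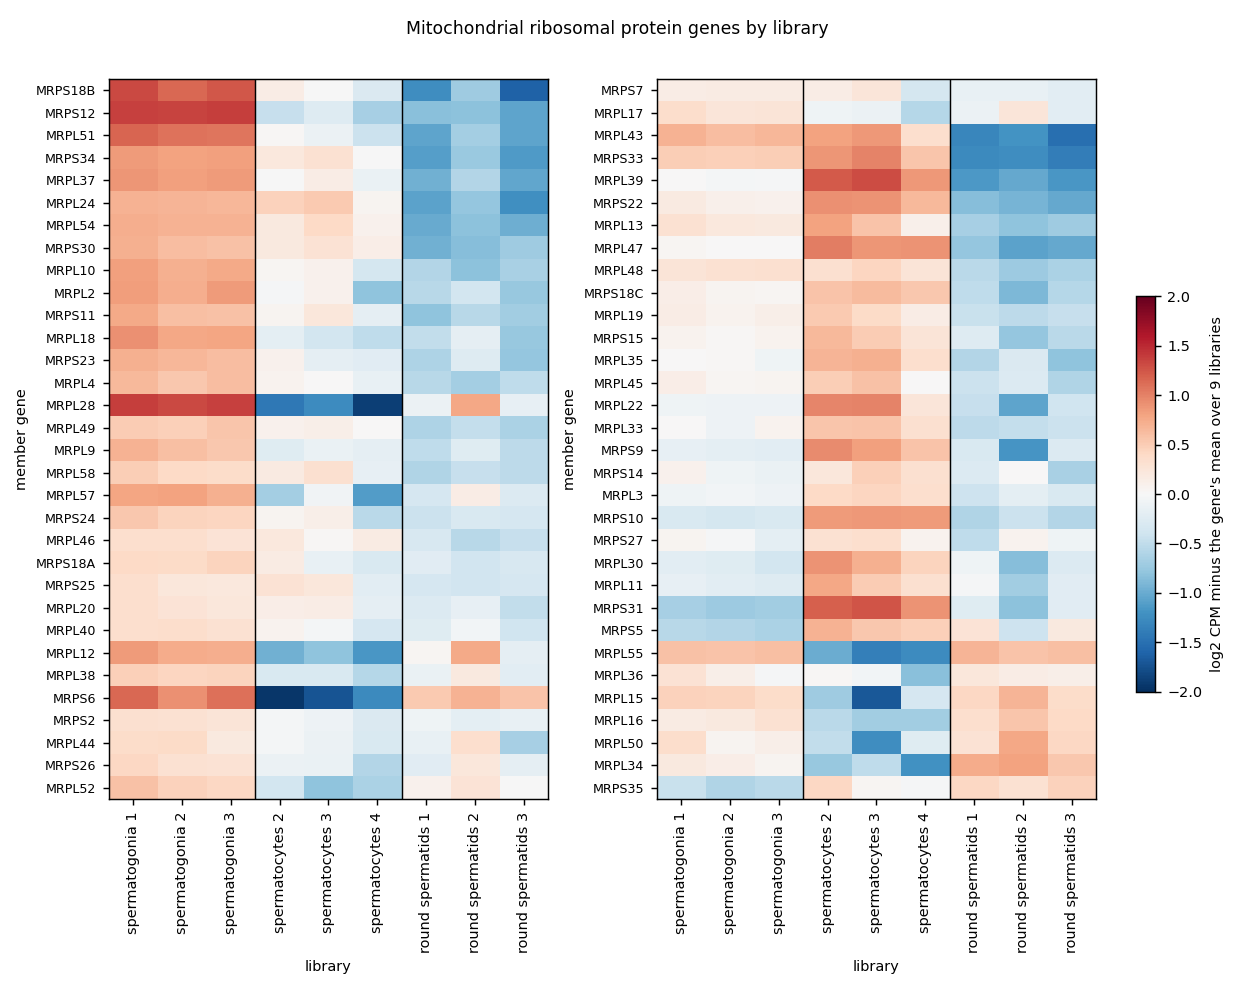
Heat map of the 64 members (rows) in the 9 libraries (columns), as log2 CPM minus the mean of the gene, with genes ordered by the stage of their highest mean. The blocks of 34, 23 and 7 members highest in spermatogonia, spermatocytes and round spermatids, by mean CPM after TMM correction, can be seen in turn.

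Members differed between spermatocytes and spermatogonia in both directions. Of the 64 members 17 were higher in spermatocytes, 32 were lower and 15 did not pass the test, which was edgeR's quasi-likelihood test with a Benjamini-Hochberg adjusted p below 0.05 over all 16802 genes tested. Among all genes 29.3% were higher and 44.0% were lower (73.4% in either direction), so the members' 26.6% higher, and 32 of 64 lower, lay near the background. The median log2 fold change was −0.43 for the members and −0.32 for all genes. Both counts moved with the processing. Higher and lower members numbered 8 and 42 without normalization factors and 6 and 41 on the TPM scale. They numbered 22 and 23 with DESeq2's size factors in edgeR, 22 and 24 with DESeq2 itself, 22 and 21 when TMM left out the 50 most abundant genes, and 23 and 27 when only these stages were fitted. Of the 42 large-subunit genes 8 rose and 23 fell, with a median log2 fold change of −0.46, and of the 22 small-subunit genes 9 rose and 9 fell, with a median of 0.08. That small-subunit median was −0.35 without normalization factors and −0.40 on TPM (4 rises and 11 falls in each), 0.27 with DESeq2's size factors (11 rises and 6 falls) and 0.33 when TMM left out the 50 most abundant genes (11 rises and 5 falls), and the difference between the subunits was not tested.

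The small-subunit genes supplied most of the largest rises. MRPS31, a mitochondria-specific protein of the small subunit on chromosome 11 (15450698 to 15472320, Sscrofa11.1), had 94.2, 98.4 and 76.8 CPM in spermatocytes, against 25.9, 24.9 and 25.4 CPM in spermatogonia. The rise was 3.54-fold (log2 fold change 1.82, SE 0.17, edgeR adjusted p = 7.02e-06). MRPS10, the counterpart of bacterial S10, on chromosome 7 (37318344 to 37329246), had 89.49, 89.998 and 88.92 CPM in spermatocytes, against 40.2, 38.7 and 39.8 CPM in spermatogonia. Its replicates hardly varied, and its log2 fold change was 1.18 (SE 0.0937, edgeR adjusted p = 2.7e-06). MRPS5, the counterpart of bacterial S5 near the entry of the mRNA channel, had 42.6, 38.5 and 36.8 CPM in spermatocytes, against 18.02, 17.61 and 17.09 CPM in spermatogonia, a log2 fold change of 1.16 (edgeR adjusted p = 0.000131). The large subunit contributed MRPL39, a mitochondria-specific protein related to threonyl-tRNA synthetases, on chromosome 13 (189148711 to 189166302). It had 75.8, 80.3 and 59.1 CPM in spermatocytes, against 32.52, 31.747 and 31.975 CPM in spermatogonia, a log2 fold change of 1.16 (SE 0.126, edgeR adjusted p = 1.86e-05). In all 4 genes every spermatocyte library was above every spermatogonia library. The largest rises and falls were named only among called genes without overlap between groups, so this separation was fixed by the choice.

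The largest falls were shared by the subunits. MRPL28, the counterpart of bacterial L28, on chromosome 3 (41330412 to 41333520), had 4.45, 5.02 and 3.25 CPM in spermatocytes, against 31.5, 30.1 and 31.1 CPM in spermatogonia. It was 7.29-fold lower in spermatocytes (log2 fold change −2.87, SE 0.267, edgeR adjusted p = 6.94e-06). MRPS6, the counterpart of bacterial S6, on chromosome 13 (197687906 to 197756773), had 1.25, 1.46 and 1.99 CPM in spermatocytes, against 10.6, 9.06 and 10.3 CPM in spermatogonia, and was 6.36-fold lower (log2 fold change −2.67, SE 0.185, edgeR adjusted p = 1.43e-06). Both genes fell to a small part of their spermatogonia level in every spermatocyte library. MRPS12, the counterpart of bacterial S12 at the decoding centre, on chromosome 6 (47728518 to 47732042), had 20.8, 23.7 and 17.99 CPM in spermatocytes, against 73.6, 72.6 and 74.1 CPM in spermatogonia, a log2 fold change of −1.82 (SE 0.127, edgeR adjusted p = 1.47e-06). MRPL55, assigned as the counterpart of bacterial L31, on chromosome 2 (51243257 to 51247626), had 3.55, 2.73 and 2.93 CPM in spermatocytes, against 10.6, 10.4 and 10.7 CPM in spermatogonia, a log2 fold change of −1.78 (SE 0.136, edgeR adjusted p = 2.21e-06). Over the whole list 12 called members were at least 2-fold lower and 4 at least 2-fold higher in spermatocytes. No share of all genes at this cut is given here, so these counts cannot be set against the background. No overlap between the groups was seen in 56 members (87.5%), as in 79.9% of all genes tested. Beside these values, 6 of 6 Leydig and 9 of 10 Sertoli markers were lower in spermatocytes, and their part in the result was not tested.

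Among the remaining abundant genes, MRPL51 had 149, 135 and 110 CPM in spermatocytes, against 328, 313 and 308 CPM in spermatogonia (log2 fold change −1.27, edgeR adjusted p = 2.5e-05). MRPL22 had 105, 107 and 63.2 CPM in spermatocytes, against 50.3, 49.7 and 49.9 CPM in spermatogonia (log2 fold change 0.87, edgeR adjusted p = 0.00431), a call that was lost on TPM and with the spermatogonia libraries summed. Spermatocyte library 4 was its lowest spermatocyte library, as it was for 55 of the 64 members. MRPS9, the counterpart of bacterial S9, was outside the rule for named genes and was singled out after its values were seen, because it had the highest CPM of all members in spermatocytes. It had 365, 335 and 281 CPM in spermatocytes, against 169, 166 and 163 CPM in spermatogonia (log2 fold change 0.98, edgeR adjusted p = 0.00185, lost with the spermatogonia libraries summed).

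**Figure D3:**
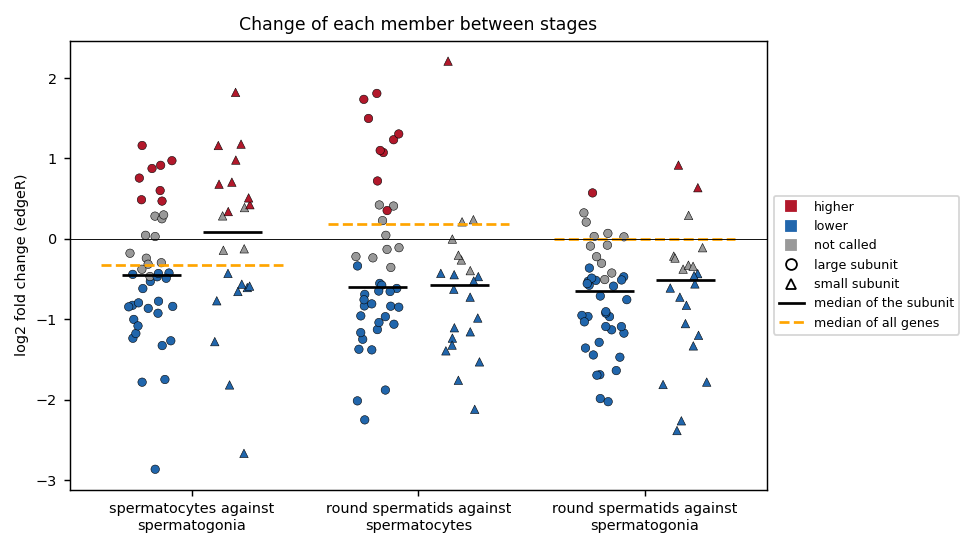
Log2 fold change of each member in the 3 comparisons, with circles for the large and triangles for the small subunit, black bars for the subunit medians and a dashed line for the median of all genes tested. The members spread around the all-gene median in spermatocytes against spermatogonia (medians −0.43 and −0.32) and lie mostly below it in both comparisons of round spermatids.

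Round spermatids had lower levels than spermatocytes for most members, of both subunits. Of the 64 members 10 were higher in round spermatids, 39 were lower and 15 did not pass the test, or 15.6% higher and 60.9% lower, where 42.7% of all genes were higher and 36.4% were lower (79.2% in either direction). The median log2 fold change was −0.60 for the members and 0.19 for all genes, and the members' median minus that of all genes ranged from −0.92 to −0.64 over the 24 alternatives. Without normalization factors 16 members were higher and 23 lower. In the large subunit 9 rose and 24 fell (median −0.60), and in the small subunit 1 rose and 15 fell (median −0.58). At least 2-fold lower were 18 called members, and 8 were at least 2-fold higher, again without a share of all genes at this cut.

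The largest falls came from both subunits. MRPL39 had 14.7, 15.9 and 14.6 CPM in round spermatids, against 75.8, 80.3 and 59.1 CPM in spermatocytes, and was 4.76-fold lower (log2 fold change −2.25, SE 0.131, edgeR adjusted p = 8.43e-08). MRPS33, a mitochondria-specific protein of the small subunit, had 16.1, 16.6 and 15.1 CPM in round spermatids, against 72.3, 78.1 and 57.2 CPM in spermatocytes (log2 fold change −2.12, SE 0.129, edgeR adjusted p = 1.17e-07). MRPL43, mitochondria-specific and on chromosome 14 (112068678 to 112070226), had 14.8, 16.0 and 12.9 CPM in round spermatids, against 63.8, 66.9 and 46.2 CPM in spermatocytes (log2 fold change −2.02, SE 0.154, edgeR adjusted p = 5.77e-07). The round spermatid libraries of each gene were close together. That they lay below every spermatocyte library was required by the rule for named genes. MRPL47, the counterpart of bacterial L29, had 7.80, 6.32 and 6.56 CPM in round spermatids, against 26.9, 24.4 and 24.8 CPM in spermatocytes (log2 fold change −1.88, SE 0.122, edgeR adjusted p = 1.79e-07). The small-subunit genes MRPS31 and MRPS10 were lower as well. MRPS31 had 34.9, 23.1 and 35.2 CPM in round spermatids, against 94.2, 98.4 and 76.8 CPM in spermatocytes (log2 fold change −1.53, edgeR adjusted p = 1.02e-05). MRPS10 had 32.7, 36.5 and 33.0 CPM in round spermatids, against 89.49, 89.998 and 88.92 CPM in spermatocytes (log2 fold change −1.39, edgeR adjusted p = 2.43e-07).

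Of the 10 members that rose, 9 are large-subunit genes, and the largest rise was that of a small-subunit gene. MRPS6 had 6.90, 7.76 and 7.16 CPM in round spermatids, against 1.25, 1.46 and 1.99 CPM in spermatocytes, and was 4.63-fold higher (log2 fold change 2.21, SE 0.183, edgeR adjusted p = 1.1e-06). MRPL55 had 11.2, 10.4 and 10.7 CPM in round spermatids, against 3.55, 2.73 and 2.93 CPM in spermatocytes (log2 fold change 1.81, SE 0.137, edgeR adjusted p = 5.39e-07). MRPL28 had 11.07, 20.55 and 10.68 CPM in round spermatids, against 4.45, 5.02 and 3.25 CPM in spermatocytes (log2 fold change 1.73, SE 0.259, edgeR adjusted p = 0.000108). Its value in round spermatid library 2 was nearly as high as the sum of the other 2. All 3 were above every spermatocyte library, as the rule for named genes required. MRPL34, the counterpart of bacterial L34, had 4.10, 4.29 and 3.53 CPM in round spermatids, against 1.45, 1.72 and 1.05 CPM in spermatocytes (log2 fold change 1.497, edgeR adjusted p = 4.55e-05). MRPL12, the counterpart of the bacterial stalk protein L7/L12 to which translation factors bind, had 20.04, 32.79 and 17.17 CPM in round spermatids, against 9.996, 11.11 and 8.687 CPM in spermatocytes (log2 fold change 1.23, edgeR adjusted p = 0.000394).

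**Figure D4:**
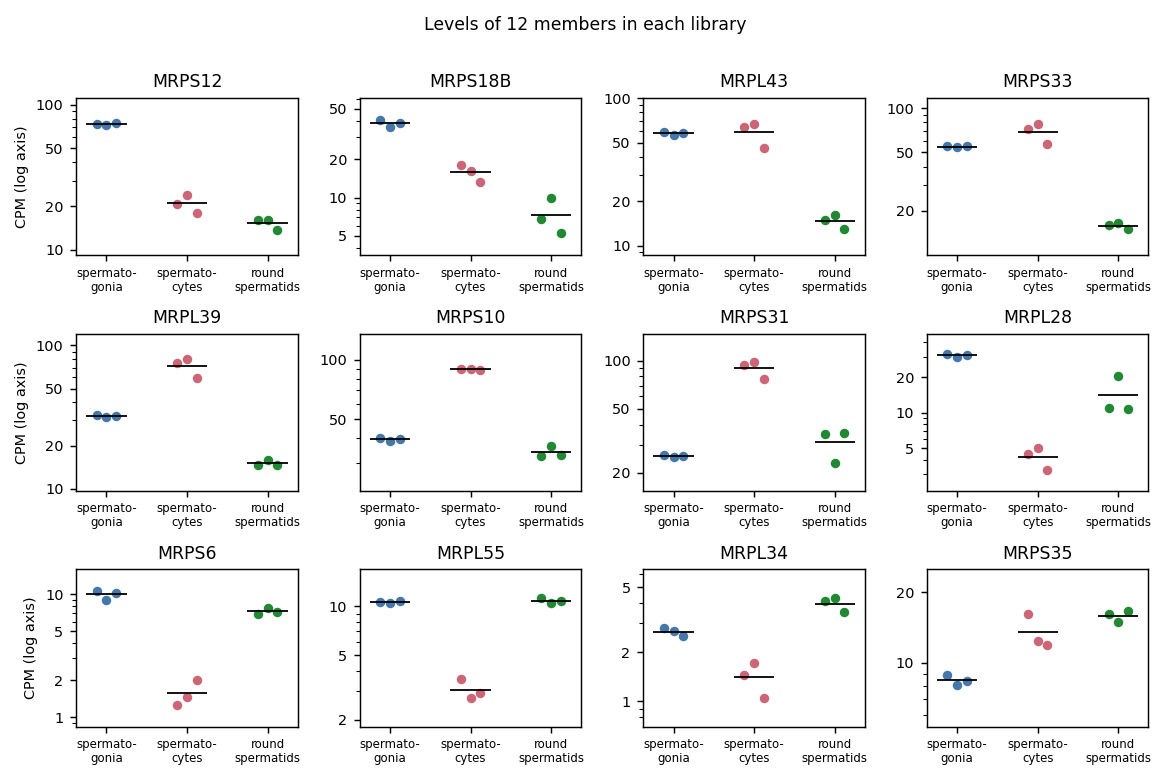
Level of 12 members in each library, in CPM on a log axis, by stage from spermatogonia to round spermatids. MRPS31, MRPS10 and MRPL39 peak in spermatocytes, MRPL28, MRPS6 and MRPL55 dip there, and MRPS12 and MRPS18B decline to the end.

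Round spermatids against spermatogonia gave the most one-sided result. Of the 64 members 3 were higher in round spermatids, 43 were lower and 18 did not pass the test, or 4.69% higher and 67.2% lower, where 39.5% of all genes were higher and 39.7% were lower (79.2% in either direction). The median log2 fold change was −0.58 for the members and 0.00 for all genes. The members' median minus that of all genes ranged from −0.95 to −0.49 over the same alternatives. Large-subunit genes gave 1 rise and 30 falls (median −0.65), and small-subunit genes 2 rises and 13 falls (median −0.51). By origin, 23 of the 38 genes with a bacterial counterpart and 20 of the 26 mitochondria-specific genes fell, with medians of −0.52 and −0.92, a difference that was not tested. At least 2-fold lower were 21 called members, and 0 were at least 2-fold higher, again without a share of all genes at this cut. Beside this, 8 of 8 myoid markers and 9 of 10 Sertoli markers were higher in round spermatids, and their part in the result was not tested.

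MRPS18B, a small-subunit member of the S18 family, on chromosome 7 (23166314 to 23172718), had 6.84, 9.88 and 5.31 CPM in round spermatids, against 40.5, 36.1 and 38.5 CPM in spermatogonia. This was the largest fall of a member between these stages, 5.22-fold (log2 fold change −2.38, SE 0.216, edgeR adjusted p = 2.65e-06). MRPS12 had 16.0, 16.1 and 13.8 CPM in round spermatids, against 73.6, 72.6 and 74.1 CPM in spermatogonia (log2 fold change −2.26, SE 0.129, edgeR adjusted p = 1.22e-07). MRPL51, on chromosome 5 (64167418 to 64168986), had 71.0, 91.7 and 70.4 CPM in round spermatids, against 328, 313 and 308 CPM in spermatogonia (log2 fold change −2.03, SE 0.148, edgeR adjusted p = 5.71e-07). Their spermatocyte values, given for MRPS12 and MRPL51 above, lay between those of the outer stages. MRPL43 had 14.8, 16.0 and 12.9 CPM in round spermatids, against 59.2, 56.3 and 57.9 CPM in spermatogonia (log2 fold change −1.99, SE 0.153, edgeR adjusted p = 8.53e-07), and its log2 fold change in spermatocytes against spermatogonia was 0.03 (adjusted p = 0.87). Other abundant members fell as well. MRPS34 had 82.0, 105 and 80.3 CPM in round spermatids, against 318, 308 and 313 CPM in spermatogonia (log2 fold change −1.81, edgeR adjusted p = 6.13e-07). MRPL37, mitochondria-specific, had a log2 fold change of −1.70 and MRPL24, the counterpart of bacterial L24, of −1.69 (edgeR adjusted p = 1.09e-06 and 2.82e-06). MRPS2, the counterpart of bacterial S2, changed less, with 62.3, 57.8 and 59.4 CPM in round spermatids, against 82.1, 81.6 and 78.7 CPM in spermatogonia (log2 fold change −0.43, edgeR adjusted p = 0.00248).

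The 3 members that were higher in round spermatids than in spermatogonia were MRPS35, MRPS5 and MRPL34. MRPS35, a mitochondria-specific small-subunit protein on chromosome 5 (45973698 to 46023003), had 16.1, 14.9 and 16.7 CPM in round spermatids, against 8.88, 8.03 and 8.36 CPM in spermatogonia (log2 fold change 0.92, SE 0.14, edgeR adjusted p = 0.000132). MRPS5 had 31.9, 19.9 and 30.1 CPM in round spermatids, against 18.02, 17.61 and 17.09 CPM in spermatogonia (log2 fold change 0.64, edgeR adjusted p = 0.00516), with round spermatid library 2 nearest to the spermatogonia. MRPL34 had 4.10, 4.29 and 3.53 CPM in round spermatids, against 2.80, 2.69 and 2.53 CPM in spermatogonia (log2 fold change 0.57, edgeR adjusted p = 0.0176). On TPM none of the 3 was called, and the log2 difference was −0.00736 for MRPS5 and −0.0382 for MRPL34. With the spermatogonia libraries summed, MRPS5 and MRPL34 were not called. The MRPL34 call was also lost without spermatogonia library 2 (adjusted p = 0.056) or library 3 (adjusted p = 0.0714).

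Other genes with their lowest mean level in spermatocytes included MRPL55, MRPL28, MRPS6 and MRPL12. MRPL55 had 11.2, 10.4 and 10.7 CPM in round spermatids, against 10.6, 10.4 and 10.7 CPM in spermatogonia, with overlapping groups (log2 fold change 0.03, edgeR adjusted p = 0.864). MRPL28 stayed lower in round spermatids, with 11.07, 20.55 and 10.68 CPM, against 31.5, 30.1 and 31.1 CPM in spermatogonia (log2 fold change −1.13, edgeR adjusted p = 0.00168). MRPS6 had a log2 fold change of −0.46 and MRPL12 of −0.52 (edgeR adjusted p = 0.0271 and 0.0463). Neither call held in every fit with a library left out. For MRPS6 the adjusted p was 0.0884 without spermatogonia library 1, 0.0762 without library 3, 0.0813 without round spermatid library 1 and 0.0686 without library 3. For MRPL12 it was 0.0613 to 0.153 without any of spermatogonia libraries 1, 2 and 3, spermatocyte library 2 and round spermatid libraries 1 and 3.

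The 3 paralogs of bacterial S18 went different ways. MRPS18A, placed in the large subunit, MRPS18B and MRPS18C, both in the small subunit, occupy separate sites of the ribosome. MRPS18C had 24.8, 25.9 and 24.3 CPM in spermatocytes, against 18.2, 17.3 and 17.2 CPM in spermatogonia (log2 fold change 0.51, edgeR adjusted p = 0.00364), a call that was lost without normalization factors and with the spermatogonia libraries summed, and that on TPM became a log2 difference of −0.0145. It was lower in round spermatids, with 11.7, 8.97 and 11.2 CPM, and a log2 fold change against spermatocytes of −1.23 (edgeR adjusted p = 5.4e-06). MRPS18B had 17.9, 16.2 and 13.3 CPM in spermatocytes, against 40.5, 36.1 and 38.5 CPM in spermatogonia (log2 fold change −1.28, edgeR adjusted p = 0.000279). MRPS18A had 48.1, 39.0 and 34.7 CPM in spermatocytes, against 56.8, 55.8 and 58.5 CPM in spermatogonia (log2 fold change −0.49, edgeR adjusted p = 0.00555), a call that 7 alternatives did not keep. All 3 were lower in round spermatids than in spermatogonia, by log2 fold changes of −0.71, −2.38 and −0.73 for MRPS18A, MRPS18B and MRPS18C.

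Of the 12 members with a further role or an unusual placement, 9 were lower in round spermatids than in spermatogonia and 3 did not pass the test, a share near that of all members. MRPL58, a peptidyl-tRNA hydrolase of the large subunit, had 21.3, 23.3 and 22.4 CPM in round spermatids, against 45.3, 42.7 and 41.8 CPM in spermatogonia (log2 fold change −0.95, edgeR adjusted p = 6.43e-05). MRPS30, in the large subunit, had 6.94, 7.48 and 8.18 CPM in round spermatids, against 21.9, 20.5 and 20.3 CPM in spermatogonia (log2 fold change −1.47, edgeR adjusted p = 9.84e-07). MRPL10, which anchors the stalk formed by MRPL12, had 22.3, 18.9 and 21.2 CPM in round spermatids, against 58.6, 54.8 and 56.4 CPM in spermatogonia (log2 fold change −1.44, edgeR adjusted p = 3.41e-06). The anchor thus declined over all stages, while MRPL12 was lowest in spermatocytes. MRPS24, the counterpart of bacterial S3, had a log2 fold change of −0.83 between the same stages (edgeR adjusted p = 0.000897). MRPS22, mitochondria-specific and mutated in inherited mitochondrial disease in humans, had 30.7, 30.4 and 25.5 CPM in spermatocytes, against 18.4, 17.4 and 17.3 CPM in spermatogonia (log2 fold change 0.70, edgeR adjusted p = 0.000313, lost on TPM and without normalization factors). In round spermatids it had 9.02, 8.52 and 8.03 CPM, below both other stages.

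MRPL36, MRPL44, MRPS7 and MRPS27 passed the edgeR test in no comparison, although each was called under at least 1 other scaling. MRPL36, the counterpart of bacterial L36, averaged 3.45 ± 0.375 CPM in spermatogonia, 2.66 ± 0.781 in spermatocytes and 3.52 ± 0.136 in round spermatids (SD, n = 3 each). MRPL44, a large-subunit protein with a ribonuclease III fold, had 3.94, 5.51 and 2.75 CPM in round spermatids, against 5.65, 5.73 and 5.02 CPM in spermatogonia, and was called lower without round spermatid library 2 (log2 fold change −0.71, edgeR adjusted p = 0.00593). MRPS7, the counterpart of bacterial S7, had 17.4, 17.7 and 17.7 CPM in spermatogonia, 17.4, 18.6 and 12.3 CPM in spermatocytes and 14.1, 14.2 and 13.7 CPM in round spermatids. Without spermatocyte library 4 it was called lower in round spermatids than in either other stage (log2 fold changes −0.37 and −0.33, edgeR adjusted p = 0.00528 and 0.00524). MRPS27, an RNA-binding pentatricopeptide repeat protein of the small subunit, had 3.10, 4.62 and 4.14 CPM in round spermatids, against 5.45, 5.54 and 4.61 CPM in spermatocytes, and was called lower without spermatocyte library 4 (log2 fold change −0.48, edgeR adjusted p = 0.033) or round spermatid library 2 (log2 fold change −0.53, edgeR adjusted p = 0.02).

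The members lie on 17 chromosomes, with 8 on chromosome 3 and 7 each on chromosomes 2 and 12, and 0 on the X chromosome. MRPS2 lies on an unplaced sequence. The genes differ widely in the length they span in the RefSeq annotation of Sscrofa11.1, and calls are given here by this span beside those of all genes. Of the 32 members that span more than the median of 7326 bases, 14 rose and 10 fell in spermatocytes against spermatogonia, with a median log2 fold change of 0.29. Among all 10814 placed genes above that span 32.4% rose and 41.9% fell, with a median of −0.21. Of the 32 shorter members 3 rose and 22 fell, with a median of −0.62. Among all 1868 placed genes at or below that span 13.5% rose and 58.8% fell, with a median of −0.89, so the members' difference between long and short genes ran the same way as that of all genes. Over the 63 placed members Spearman's rho between span and log2 fold change was 0.45 for spermatocytes against spermatogonia, −0.32 for round spermatids against spermatocytes and 0.09 for round spermatids against spermatogonia. Over all 12682 genes with a span it was 0.19, −0.16 and −0.02. These are descriptions across genes, which share libraries and are no independent replicates. MRPL39 and MRPS31, which peaked in spermatocytes, span 17592 and 21623 bases, and MRPL28 and MRPS12, which fell there, 3109 and 3525 bases. MRPS6, which also fell, spans 68868 bases.

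**Figure D5:**
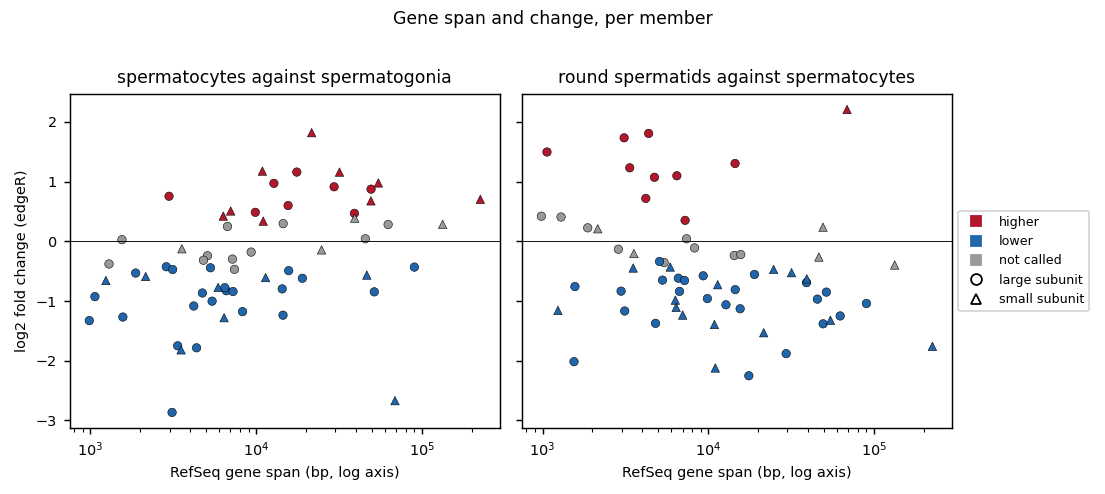
Length spanned by each member in the RefSeq annotation, in bases on a log axis, against its log2 fold change in spermatocytes against spermatogonia and in round spermatids against spermatocytes. Longer genes tend to lie higher in the first comparison (Spearman's rho 0.45) and lower in the second (−0.32).

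The spans of 16 members overlap that of another protein-coding gene, and since the use of strand in counting is not stated, reads of such pairs cannot be told apart with certainty. Among the genes named above they are MRPL28, MRPL43, MRPL47, MRPS6, MRPS7, MRPS18B, MRPS18C, MRPS22 and MRPS27. Where the partner had a value, it did not always move with the member. PPP1R10, which overlaps MRPS18B, averaged 185 ± 13.9 CPM in round spermatids and 92.1 ± 2.30 CPM in spermatogonia (SD, n = 3 each), while MRPS18B fell. TWNK, which overlaps MRPL43, averaged 17.9 ± 0.96 CPM in round spermatids and 17.2 ± 1.14 CPM in spermatocytes, while MRPL43 fell. ACTL6A, which overlaps MRPL47, fell together with it, to 26.3 ± 4.32 CPM in round spermatids, against 113 ± 14.1 CPM in spermatocytes. ABRAXAS1 and HELQ, which overlap MRPS18C, and COPB2, which overlaps MRPS22, rose in spermatocytes and fell in round spermatids, as those members did. ABRAXAS1 averaged 22.1, 63.6 and 16.0 CPM from spermatogonia to round spermatids. GGA3 and MIF4GD, which overlap MRPS7, and PTCD2, which overlaps MRPS27, were called lower in round spermatids than in both other stages. Of the 16 overlapping members 13 were lower in round spermatids than in spermatogonia, as were 30 of the 48 without overlap and 39.7% of all genes tested, and the difference between these groups was not tested.

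Genes listed as mitochondrial ribosomal proteins under other symbols were few, with 6 found. Between spermatocytes and spermatogonia 1 rose, 1 fell and 4 did not pass the test. Between round spermatids and spermatocytes 3 rose and 3 fell, and between round spermatids and spermatogonia 0 rose and 2 fell. DAP3, a GTP-binding protein of the small subunit, averaged 30.8 ± 1.26 CPM in round spermatids and 62.2 ± 2.70 CPM in spermatocytes (SD, n = 3 each, log2 fold change −1.01, edgeR adjusted p = 2.54e-06). GADD45GIP1, a large-subunit protein, dipped in spermatocytes, with 3.93 ± 0.613 CPM there, against 8.06 ± 0.159 CPM in spermatogonia (SD, n = 3 each, log2 fold change −1.04).

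The genes that assemble the ribosome and run translation on it did not share a single course. Of 30 assembly and rRNA modification genes found, 7 rose and 17 fell in spermatocytes against spermatogonia (median log2 fold change −0.82), and 9 rose and 14 fell in round spermatids against spermatocytes (median −0.39, and 0.08 without normalization factors). MTG1, a GTPase of large-subunit assembly, averaged 6.62 ± 1.42 CPM in round spermatids and 48.1 ± 1.58 CPM in spermatogonia (SD, n = 3 each, log2 fold change −2.86). ERAL1, the chaperone of the small ribosomal RNA, averaged 4.89 ± 0.635 CPM in round spermatids and 31.4 ± 0.423 CPM in spermatogonia (log2 fold change −2.68). MPV17L2, a membrane protein that takes part in assembly, was lowest in spermatocytes instead, with 3.33 ± 0.717 CPM in round spermatids and 0.189 ± 0.0511 CPM in spermatocytes (log2 fold change 4.13). A list of 22 genes held translation factors and other proteins that serve translation, such as those that stabilise mRNAs or modify tRNAs. Of these, 9 rose and 5 fell in spermatocytes against spermatogonia (median 0.23, but −0.19 without normalization factors and −0.30 on TPM). In round spermatids against spermatocytes 4 rose and 13 fell (median −0.56). SLIRP, which stabilises mitochondrial mRNAs together with LRPPRC, averaged 1.501 ± 0.5002 CPM in spermatocytes and 8.82 ± 0.505 CPM in spermatogonia (log2 fold change −2.55). GUF1, an elongation factor, averaged 79.1 ± 4.54 CPM in spermatocytes and 23.4 ± 0.168 CPM in spermatogonia (log2 fold change 1.76). Of 19 mitochondrial aminoacyl-tRNA synthetases 3 rose and 6 fell at the first step (median −0.27) and 5 rose and 12 fell at the second (median −0.60). FARS2, which charges the phenylalanine tRNA, averaged 17.0 ± 1.88 CPM in round spermatids and 71.8 ± 12.997 CPM in spermatocytes (log2 fold change −2.08). Of 24 genes of mitochondrial transcription, RNA processing and DNA replication 13 rose and 7 fell at the first step (median 0.40, but −0.03 without normalization factors and −0.13 on TPM). At the second step 6 rose and 12 fell (median −0.38, and 0.07 without normalization factors). HSD17B10, a subunit of mitochondrial ribonuclease P, averaged 13.02 ± 0.818 CPM in round spermatids and 1.57 ± 0.452 CPM in spermatocytes (log2 fold change 3.04).

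Values for the cytosolic ribosome and for the products of mitochondrial translation stand beside those of the members. Of 50 cytosolic ribosomal protein genes 7 rose and 37 fell in spermatocytes against spermatogonia (median log2 fold change −1.04), but 45 rose and 3 fell in round spermatids against spermatocytes (median 1.49), where the mitochondrial ribosomal proteins had 10 rises and 39 falls. Their summed level was 16844, 18055 and 16682 CPM in round spermatids, against 7518.5, 6928 and 5954 CPM in spermatocytes. Cytosolic ribosomal protein genes have near-identical copies that can share reads, so their values are uncertain. The 64 nuclear genes of respiratory chain subunits gave 28 falls and 16 rises in round spermatids against spermatocytes (median −0.33, and 0.16 without normalization factors) and 43 falls and 9 rises against spermatogonia (median −0.92). The 13 protein-coding genes of the mitochondrial genome, whose mRNAs the mitochondrial ribosome translates, had 0 falls past the test in any comparison. They summed to 6318, 6458.5 and 6357 CPM in spermatogonia, 25078, 17759 and 17083 CPM in spermatocytes, and 85823, 24931 and 97082 CPM in round spermatids. All 13 were higher in round spermatids than in spermatogonia, with a median log2 fold change of 3.97. Round spermatid library 2 had the lowest mitochondrial sum of its stage and the highest level of 40 of the 64 members. With that library left out, 4 members were higher and 49 lower in round spermatids than in spermatogonia.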

How the data were processed

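RNA from pig testis cells went through a directional library kit and paired-end Illumina sequencing, per the labels' protocols. The submitters' processing notes name the build Sscrofa11.1 and bcl2fastq. For aligner, quantifier, annotation and strand setting, nothing is given in the sources used here. The authors deposited estimated counts per gene and TPM, 1 column per library. Round spermatid columns carry the sample titles. Spermatogonia columns are headed with the KIT receptor and spermatocyte columns with the pachytene stage, with the titles' numbers, a match that rests on the meaning of those names. The other 6 of 15 library columns were not used. No animal is named for any library, so the p-values rest on library-to-library spread, and part of it may be technical. The spermatogonia libraries differed little, so p-values against spermatogonia may be too small if these libraries share an animal. With them summed into 1 sample, the members' median log2 fold change against spermatogonia was −0.49 in spermatocytes and −0.66 in round spermatids. As reported, these medians were −0.43 and −0.58.

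Estimated counts were rounded. Genes passing filterByExpr (16802) were scaled with TMM and fitted over all 9 libraries with edgeR 4.0.16 (glmQLFit, glmQLFTest, common dispersion 0.0316) in R 4.3.3, with Benjamini-Hochberg adjusted p below 0.05 as the call. The code was tested on simulated data. In all, 24 alternatives were run, including DESeq2 1.42.0, limma 3.58.1 on counts and on log2(TPM + 0.5 or 0.1), other scalings and filters, each library left out, a replicate block and the 3 spermatogonia libraries summed into 1 sample. Symbols came from a list of gene names, and positions from a RefSeq table of Sscrofa11.1. Of 77 RefSeq symbols that match the rule, 13 were mapped to no gene identifier of the deposited data and are not analysed here. Their genes may be among those without a symbol. The members and lists were chosen with earlier results of these data known. Named members were the 4 largest rises and falls per comparison among called genes without overlap between groups, members called nowhere, members with a further role or unusual placement, and the 5 most abundant per stage by TPM.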

Additional observations from a re-analysis of the deposited data

How the results depend on the processing

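The division of calls between rises and falls differed between alternatives, with the widest range at the first step. Over the 24 alternatives the median log2 fold change of all genes ranged from −0.79 to −0.08 for spermatocytes against spermatogonia, from −0.01 to 0.64 for round spermatids against spermatocytes and from −0.69 to 0.07 for round spermatids against spermatogonia, and the share of rises among all calls from 22.9 to 48.6%, 49.4 to 65.7% and 33.1 to 52.1%. For spermatocytes against spermatogonia, 17 members were higher as reported, 8 without normalization factors, 6 on TPM with either pseudocount or without a filter and 7 with the spermatogonia libraries summed, but 22 with DESeq2's size factors or DESeq2 itself and 23 with only the stages compared. Members lower, 32 as reported, numbered 21 when TMM left out the 50 most abundant genes, 21 without mitochondrial-genome genes and 21 with no filter on low counts. For round spermatids against spermatocytes, 16 were higher and 23 lower without normalization factors. For round spermatids against spermatogonia, 0 were higher on TPM and 1 with the spermatogonia libraries summed. With each library left out in turn, the higher and lower counts were 15 to 20 and 31 to 34 at the first step, 9 to 11 and 37 to 44 at the second, and 2 to 4 and 40 to 49 between the outer stages. Calls that held under all 24 alternatives were 26 of 49, 31 of 49 and 35 of 46. Directions turned for the members listed next, counting only cases called in the reported fit, the alternative or both. Members without a call turned as well. MRPL18 in round spermatids against spermatocytes, for example, had log2 fold changes from −0.31 to 0.37 over the alternatives. Without normalization factors the log2 fold change of spermatocytes against spermatogonia was −0.40 for MRPL43, −0.0880 for MRPS33 and −0.38 for MRPL48, and that of round spermatids against spermatocytes was 0.46 for MRPS2, 0.0247 for MRPS12, 0.14 for MRPL20 and 0.0479 for MRPS23. On TPM the first was −0.0545 (−0.0550 with the lower pseudocount) for MRPL3, −0.20 for MRPS33, −0.47 (−0.48) for MRPL48, −0.0392 (−0.0394) for MRPL33, −0.11 for MRPS15 and −0.0145 (−0.0151) for MRPS18C, and that of round spermatids against spermatogonia was −0.00736 (−0.00749) for MRPS5, −0.35 for MRPS31, −0.53 (−0.58) for MRPL55 and −0.0382 (−0.0438) for MRPL34. The cause of these changes was not tested. Libraries with the same number did not deviate together (correlations −0.05 to 0.03 over 7 pairs, and −0.09 to 0.09 over 20 pairs with different numbers). With 3 libraries a stage, and spermatogonia libraries that differed so little, this cannot show whether a number marks a shared animal. With a replicate block 20 members were higher and 30 lower at the first step, 9 and 42 at the second, and 3 and 46 between the outer stages. MRPS33 at the first step was called as reported but not without any of spermatogonia libraries 1, 2 and 3 or spermatocyte libraries 2 and 3 (adjusted p = 0.0816 to 0.0939). Counting error weighs most on members under 5 CPM.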
